A study of Homo sapiens with 16 samples.

Results

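The short arm of human chromosome 12, from 6740000 to 12820000 (hg19), holds the natural killer gene complex, the bitter taste receptor and proline-rich protein clusters and many genes used by every cell. A set of 108 genes from this window was described in a METex14 clone of bronchial epithelial cells and its parental line. The members were chosen by position: each array probe in the window was kept if it was well above background on at least 4 of 16 arrays, 1 probe per gene name was taken (the brightest), and TPI1, ENO2 and the LINC symbols were left out. The window itself had been picked because its genes were higher in the clone, so the differences between the genotypes are given below as a description, without a test. The window had 255 probes and 193 gene names on the array. Of these names 10 were left out by name, 75 had no probe that reached the limit, and the other 108 are the members, out of 26368 gene names with a tested probe in the whole data set.

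The cells were 16HBE, a human bronchial epithelial line (16HBE14o-) immortalised with SV40 large T antigen. 16HBE-WT cells carry wild-type MET, the receptor tyrosine kinase for hepatocyte growth factor (HGF). 16HBE-ex14 cells were edited with CRISPR/Cas9 so that MET lacks exon 14, and are a single clone (F) obtained by limiting dilution, so a difference between the genotypes cannot be told apart from a difference between this clone and its parental population. All cells were starved of serum for 2 h and then kept for 24 h with or without 20 ng/mL HGF, which gives 2 groups per genotype, named 16HBE-WT and 16HBE-ex14 without the ligand and 16HBE-WT+HGF and 16HBE-ex14+HGF with it, of 4 one-colour arrays each. According to the methods of the study, the 4 replicates were spaced by a week in culture, so the p-values rest on the spread between successive cultures of 1 parental line and 1 clone. Which arrays of different groups came from the same week is not given in the sources used here. Replicate numbers follow the accession order and only name an array; replicates 1 and 2 lay on 1 slide, and replicates 3 and 4 on the other.

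Genes that lie side by side on a chromosome share their copy number and, in places, their chromatin domain, although most neighbours have promoters of their own. The lectin-like receptor genes of this window are known from natural killer and myeloid cells. The bitter taste receptors and salivary proline-rich proteins are known from taste cells and glands. Alongside them lie housekeeping genes of RNA processing, mitochondria, lysosomes and peroxisomes, which epithelial cells use as well. In bulk RNA of this kind, fewer expressing cells and less RNA per cell cannot be told apart.

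The signal of a probe is given throughout as log2 intensity minus the 75th percentile of its array, so 0 is a spot as bright as that percentile. Different probes are not compared in brightness. The percentile itself was 139.5 to 213.0 intensity units on the 8 WT arrays and 201.8 to 262.8 on the 8 ex14 arrays, and 49.0% to 60.3% of probes were well above background on an array. All 8 bronchial epithelial markers on the array (EPCAM, CDH1, TP63 and 5 keratins) were above background on all 16 arrays. The largest differences between the genotypes were in 2 keratins of basal cells, both lower in the clone. Without HGF the mean of KRT5 was 2.62 in WT and 0.05 in the clone, and with HGF 2.00 and -2.26. KRT17 had means of 1.28 and -0.33 without HGF and 0.82 and -1.41 with it. The other markers differed less, and in both directions. TP63 was nearly equal, with means of -3.74 and -3.81 without HGF and -3.39 and -3.37 with it. In both conditions KRT8 and CDH1 had higher means in the clone, and EPCAM, KRT18 and KRT19 lower ones. Of 7 fibroblast markers 2 were above background on all 16 arrays and 4 (COL1A2, COL3A1, DCN and PDGFRA) on none, and their summed signal, in units of the 75th percentile, was 0.56 to 1.05 in 16HBE-WT and 0.33 to 0.52 in 16HBE-ex14, and 0.58 to 0.81 and 0.41 to 0.43 with HGF, without overlap between the genotypes. The part of these marker differences in the members' values was not tested. The probe for MET read 4.82 to 5.18 in 16HBE-WT, 4.86 to 5.14 in 16HBE-WT+HGF, 4.91 to 5.26 in 16HBE-ex14 and 5.05 to 5.26 in 16HBE-ex14+HGF. This probe (chromosome 7, 116438290 to 116438349, hg19) lies in the last part of the transcript, outside exon 14, so it is no check of the deletion.

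Sequences are shown for the members whose own response to HGF is described below and for the microRNAs of a member that is their host transcript. MIR200CHG, whose probe lies at 7073551 on chromosome 12 (hg19), is the host transcript of miR-200c and miR-141, microRNAs known to hold down ZEB1 and ZEB2 in epithelial cells. The arrays measured the host transcript and not the mature microRNAs. Both mature sequences are from RefSeq (GRCh38.p14, chr12:6963742-6963764 and chr12:6964155-6964176, plus strand), with the seed, bases 2 to 8, in capitals. The seeds differ at 1 base.
hsa-miR-200c-3p: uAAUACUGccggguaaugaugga
hsa-miR-141-3p: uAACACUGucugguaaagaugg

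The 250 bases before the annotated start of GABARAPL1 (chr12:10212627-10212876, plus strand) and of YBX3 (chr12:10723324-10723573, minus strand) are given from RefSeq (GRCh38.p14) because these are the members lowered by HGF on more than 1 probe. Of the 108 members 53 had such a sequence, and OLR1 and TMEM52B did not. Capitals mark any match, on either strand, to the cAMP response element TGACGTCA, the forkhead element GTAAACA or the AP-1 element TGANTCA.
GABARAPL1: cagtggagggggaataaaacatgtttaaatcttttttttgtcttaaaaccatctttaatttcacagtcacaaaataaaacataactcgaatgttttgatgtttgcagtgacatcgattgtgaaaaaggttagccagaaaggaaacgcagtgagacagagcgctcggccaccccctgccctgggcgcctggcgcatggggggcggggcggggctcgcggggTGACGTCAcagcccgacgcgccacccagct
YBX3: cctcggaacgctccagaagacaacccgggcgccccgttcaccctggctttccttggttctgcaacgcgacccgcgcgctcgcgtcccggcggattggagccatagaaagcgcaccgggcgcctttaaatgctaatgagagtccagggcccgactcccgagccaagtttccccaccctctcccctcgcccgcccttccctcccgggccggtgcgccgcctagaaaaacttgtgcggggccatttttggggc
The GABARAPL1 sequence held 1 cAMP response element, which begins 30 bases before the start, and neither of the other elements. The YBX3 sequence held none of the 3. The same letters were found in 1.65% of the 35116 sequences of this length for the cAMP response element, in 2.98% for the forkhead element and in 6.57% for the AP-1 element. Among the 53 members with a sequence, 1, 2 and 3 held them respectively.

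The members were higher in the METex14 clone both without and with HGF. Without HGF the median log2 difference between 16HBE-ex14 and 16HBE-WT was 0.37 over the 108 members (quartiles 0.18 and 0.66, a 1.29-fold median), and 95 members lay above 0. With HGF the median was 0.35 (quartiles 0.12 and 0.61), and 85 lay above 0. Over all 26368 tested genes the same medians were -0.01 and 0.00. A total of 80 members were higher in the clone in both comparisons, a pattern shared by 37.5% of all tested probes, and 8 were lower in both, so the window was not uniformly higher.

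The median over members, after each gene was centred on its mean of 16 arrays, lay between -0.27 and -0.12 on the 16HBE-WT arrays and between -0.21 and -0.14 on the 16HBE-WT+HGF arrays. It lay between 0.15 and 0.27 on the 16HBE-ex14 arrays and between 0.18 and 0.24 on the 16HBE-ex14+HGF arrays. Every array of the clone was above every WT array, and arrays with and without HGF overlapped within a genotype. The median over all tested probes stayed between -0.05 and 0.08 on the same arrays.

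**Figure D1:**
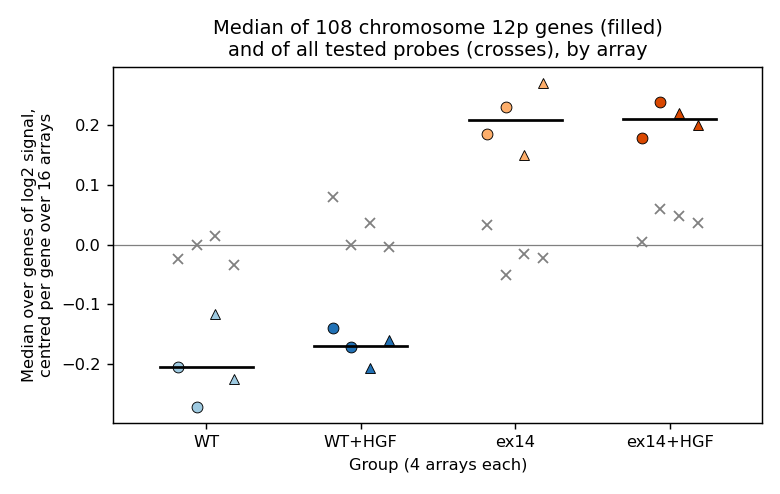
Median over the 108 members (filled symbols) and over all tested probes (crosses) of log2 signal centred per gene over 16 arrays, for each array of the 4 groups; circles are slide 1, triangles slide 2 and bars the mean of 4 arrays. The members' medians lie at -0.12 or below on all WT arrays and at 0.15 or above on all ex14 arrays.

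Single members passed the limits used here (limma, an adjusted p below 0.05 and a fold change above 1.5) in 24 cases without HGF, all higher in the clone, where 9.4% of all tested probes were called, 4.51% higher and 4.88% lower. With HGF 25 were called higher and 1 lower, where 10.8% of all tested probes were called, 5.32% higher and 5.52% lower. The limits were passed in both comparisons by 19 members, all higher, and the share of all tested probes passing both was not counted. For 23 members all 8 arrays of the clone were above all 8 WT arrays, where 5.75% of all tested probes had this pattern. For no member were all 8 below, where 5.02% of all tested probes were. As the window was chosen on this contrast, these counts describe it and are no test.

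The size of the shift depended on how the arrays were brought to a common scale. When the local background was corrected again with normexp from the mean spot signals, the medians were 0.10 and 0.06, with 63 and 59 members above 0, while the median of all tested probes moved to -0.13 and -0.14. When the arrays were scaled to the E1A spike-in RNA the medians were 0.54 and 0.45, with all tested probes at 0.15 and 0.10. Relative to all tested probes the members were higher under each of these settings. The 71 members above background on all 16 arrays had medians of 0.37 in both comparisons, and the 37 members above background on only 4 to 15 arrays had medians of 0.36 and 0.23. Of the latter, TAS2R19 and TAS2R43 were above background on no WT array and became members through the clone alone.

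The shift was uneven along the window. From 6.74 to 7.5 Mb the medians over 37 members were 0.32 without HGF and 0.33 with HGF. From 7.5 to 8.5 Mb they were 0.35 and 0.29 (12 members), and from 8.5 to 9.5 Mb 0.42 and 0.43 (11 members). The lowest medians, 0.19 and 0.07, belonged to the 19 members from 9.5 to 10.5 Mb, where the lectin-like receptor genes lie. Of these 13 were above 0 without HGF and 10 with HGF (52.6%), beside 50.2% of all tested genes with HGF. With HGF this stretch was mixed, with quartiles of -0.28 and 0.63. There 4 members were called higher and 1 lower, where 5.32% and 5.52% of all tested probes were. From 10.5 to 11.5 Mb they were 0.53 and 0.43 (20 members), and from 11.5 to 12.82 Mb 0.65 and 0.59 (9 members, all 9 above 0 in both comparisons).

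**Figure D2:**
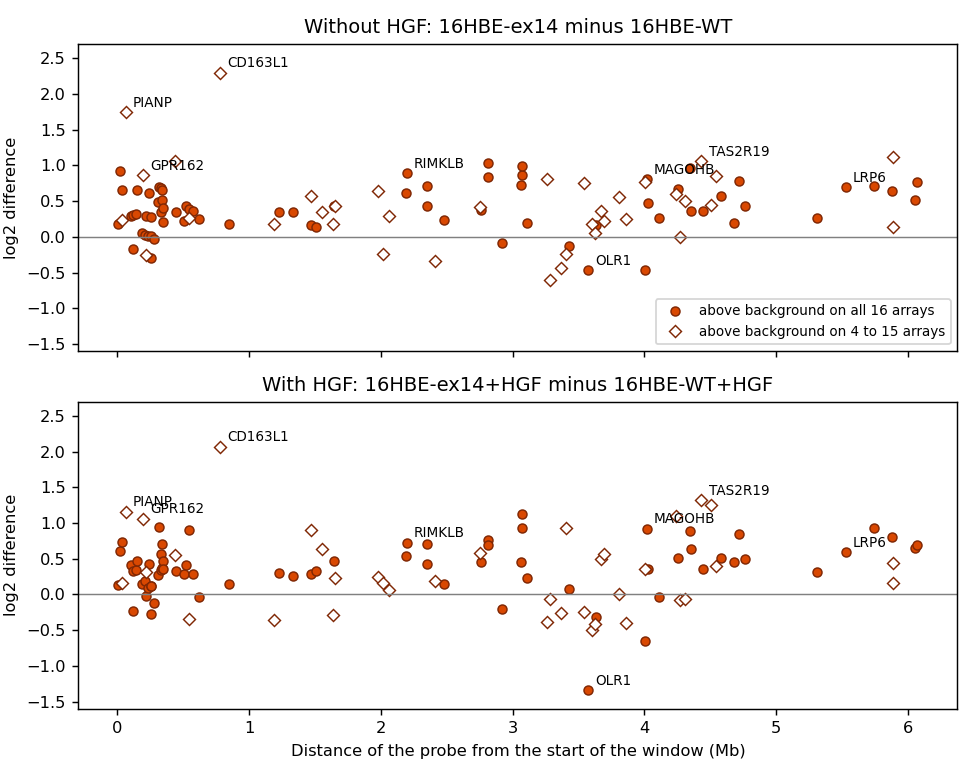
Log2 difference of each member between the genotypes (ex14 minus WT) against the distance of its probe from the start of the window in Mb, without HGF (top) and with HGF (bottom); filled circles were above background on all 16 arrays and open diamonds on 4 to 15, so part of the diamonds are not measured differences. CD163L1 is highest in both panels, at 2.30 and 2.07, and OLR1 is lowest with HGF, at -1.34.

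Outside the window the differences were smaller at the median. The 87 genes of chromosome 12 before the window had medians of 0.09 and 0.21, the 128 genes between the window and the widest gap between probes (34.40 to 37.93 Mb) had 0.08 and 0.09, and the 988 genes beyond that gap had 0.03 and 0.04. Among the 87 genes before the window, 14 were called higher and 1 lower without HGF, and 12 higher and 3 lower with HGF. Of all tested probes 4.51% and 5.32% were called higher, so genes higher in the clone were not confined to the window. The ends of the window did not separate high from low genes sharply. Just before it, LPAR5 was above background on all WT arrays, on 2 of 4 16HBE-ex14 arrays and on no 16HBE-ex14+HGF array. It read -2.12 without HGF, partly from arrays below background, and no size is given with HGF. Next to it, lnc-GAPDH-3 read 0.46 and 0.26. The first members, ACRBP, ING4 and ZNF384, read 0.18, 0.92 and 0.65 without HGF. The last member, GPR19, read 0.76 and 0.69, and CDKN1B, beyond the end, read 0.72 and 0.67. Between them lay ENST00000539988 (-0.49 and -0.37) and lnc-CDKN1B-1:1 (0.16 and 0.21), dim probes above background on only 7 and 6 arrays. At the limit on dim probes, 4 members were above background on exactly 4 arrays (CLEC12A-AS1, CLEC7A, LOC101928100 and TAS2R19). Their differences without HGF ran from -0.44 to 1.06. The upper end is TAS2R19, which was above background on no WT array, so 1.06 is not a measured difference. Of the genes left out by name, TPI1 read 0.41 and 0.40 and ENO2 0.67 and 0.58.

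**Figure D3:**
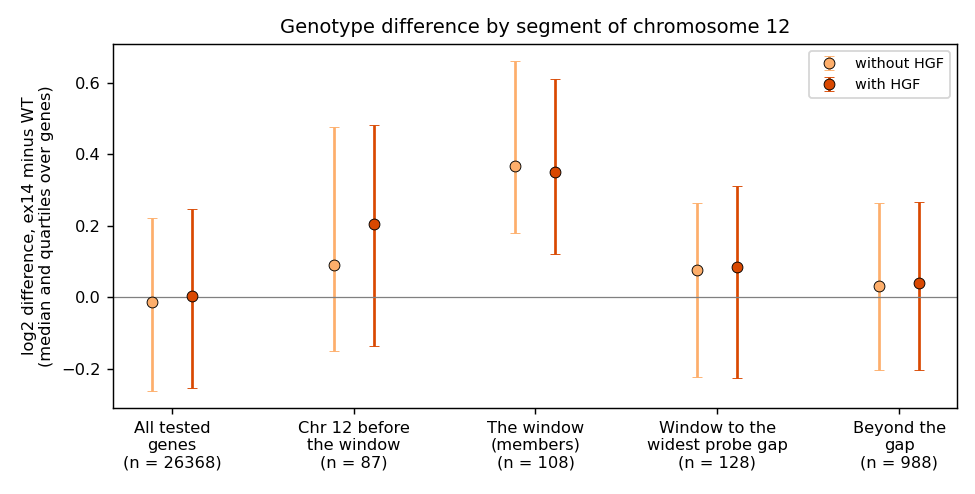
Median (points) and quartiles (bars) over genes of the log2 difference between the genotypes, without and with HGF, for all tested genes, the members and the 3 other segments of chromosome 12. The members' medians are 0.37 and 0.35, against 0.09 and 0.21 before the window and 0.08 and 0.09 after it.

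Among the genes of transcription and chromatin, 8 of the 12 listed genes were members, all 8 were higher in the clone without HGF and 7 with HGF (medians 0.54 and 0.63). ING4, a histone-reading subunit of an acetyltransferase complex, read 0.28, 0.18, 0.32 and 0.48 on the 16HBE-WT arrays and 1.27, 1.04, 1.39 and 1.25 on the 16HBE-ex14 arrays. The ranges were well apart, and the difference was 0.92 without HGF and 0.60 with HGF. PHC1, a subunit of Polycomb repressive complex 1, differed by 0.71 in both comparisons. ZNF384, a zinc finger transcription factor, differed by 0.65 and 0.73. ETV6, an ETS family repressor, was nearer to 0 (0.26 and 0.31), and its second probe read -0.17 and 0.02.

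Of the genes of RNA binding and ribosome assembly, 4 were members. MAGOHB, a core component of the exon junction complex, read 3.56, 3.75, 3.64 and 3.78 in 16HBE-WT and 4.33, 4.34, 4.74 and 4.54 in 16HBE-ex14. With HGF it read 3.86, 3.90, 3.91 and 3.71 in WT and 4.50, 4.83, 4.82 and 4.92 in the clone, so the genotypes did not overlap in either condition, and the differences were 0.80 and 0.92. C12orf57, whose role is not certain and which was put in this list by hand, differed by 0.70 and 0.94, and EMG1, a methyltransferase of the small ribosomal subunit, by 0.40 and 0.47.

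The organelle genes included 7 members, 7 higher without HGF and 5 with HGF (medians 0.36 and 0.33). PHB2, a prohibitin of the inner mitochondrial membrane, read 4.68, 4.84, 4.68 and 5.03 in 16HBE-WT and 5.42, 5.27, 5.66 and 5.49 in 16HBE-ex14. Its lowest array of the clone was above its highest WT array in both conditions, with differences of 0.65 and 0.70. BORCS5, a subunit of the complex that positions lysosomes, differed by 0.65 and 0.81. M6PR, the cation-dependent mannose 6-phosphate receptor, differed by 0.44 and 0.43, and PEX5, the import receptor of peroxisomes, by 0.25 and -0.04.

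The enzymes of the ubiquitin and NEDD8 systems and the cell cycle gave 4 members. SPSB2, a substrate adaptor of a cullin ligase, differed by 0.61 and 0.43, whereas USP5, a deubiquitinase, differed by 0.01 and 0.09 with overlapping arrays. Among the metabolic and transport genes, RIMKLB, a ligase that makes N-acetylaspartylglutamate and citrylglutamate, read 1.85 to 2.16 in 16HBE-WT and 2.84 to 3.03 in 16HBE-ex14, and differed by 0.89 and 0.73. The glucose transporter genes SLC2A3 and SLC2A14 each differed by 0.35 without HGF, but they are near-identical and their probes may bind both transcripts. LPCAT3, an acyltransferase of membrane lipids, differed by 0.21 and 0.35.

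CD163L1, a scavenger receptor of the cysteine-rich family, had the largest difference of any member in both comparisons. It read -4.07, -4.58, -3.89 and -3.72 in 16HBE-WT, where 2 of 4 arrays were above background, and -2.12, -1.72, -1.54 and -1.70 in 16HBE-ex14. With HGF it read -3.75, -3.50, -3.61 and -3.65 in WT and -1.55, -1.61, -1.69 and -1.40 in the clone. The differences were 2.30 (4.91-fold) and 2.07 (4.19-fold). Their size depended on the processing, as they fell to 0.57 and 0.56 under 1 alternative in each comparison. Of the other complement and scavenger genes, C1R, a protease of the first complement component, differed by 0.35 and 0.33, and C3AR1, the receptor for C3a, by 0.17 and 0.28.

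The receptors, kinases and phosphatases gave 7 members with medians of 0.72 and 0.59, and the 3 of them above background on all 16 arrays had 0.70 and 0.59. LRP6, a co-receptor for Wnt ligands, read 1.29, 1.45, 1.82 and 1.45 in 16HBE-WT and 2.01, 2.37, 2.16 and 2.27 in 16HBE-ex14, and differed by 0.70 and 0.59. MANSC1, a membrane protein, read -2.53 to -2.10 in 16HBE-WT and -1.85 to -1.30 in 16HBE-ex14, with differences of 0.72 and 0.93. GPR162, an orphan receptor, differed by 0.86 and 1.06, although 1 array of 16HBE-ex14 (-3.44) lay within the WT range. PIANP was above background on 5 arrays only, none of them 16HBE-WT, so no fold is given.

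Among the bitter taste receptors and salivary proline-rich proteins, 20 listed genes have a probe in the window and 11 were members. The 7 of them above background on all 16 arrays were higher in the clone in both comparisons (medians 0.43 and 0.51). The other 4 were above 0 as well, but TAS2R19 and TAS2R43 passed the filter only through arrays of the clone, and with normexp TAS2R19 read -0.089 and -0.17 and TAS2R43 -0.13 with HGF. PRH2, a salivary acidic proline-rich protein, read -0.70, -0.76, -0.81 and -0.67 in 16HBE-WT and 0.16, 0.26, 0.33 and 0.15 in 16HBE-ex14. No array overlapped between the genotypes, and the differences were 0.96 and 0.89. Several taste receptors were near background. TAS2R19 was above background on 4 arrays and TAS2R43 on 6, and no fold is given for TAS2R19. With the processing used here, the bound for the clone was 1.01-fold higher for TAS2R43 with HGF. For TAS2R10 without HGF it was 1.12-fold higher. Neither bound held under every alternative: TAS2R43 turned negative with normexp as given above, and TAS2R10 read -0.13 without HGF under 1 alternative. These families are made of close copies, and their probes may bind more than 1 member.

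The C-type lectin-like receptors, which have 25 listed genes with a probe in the window, gave only 7 members, 2 of them above background on all 16 arrays. Of the 7, 5 were higher without HGF and 4 with HGF (medians 0.25 and 0.07). OLR1, also a lectin-like receptor, had been listed with the metabolic genes and is not in these counts and medians. It was lower in the clone, at -0.47 without HGF and -1.34 with HGF. CLEC2D, whose product is a ligand for a natural killer cell receptor, differed by 0.19 and 0.23 with overlapping arrays, and its second probe on the same accession read -0.10 and -0.02. One more probe, on another accession and above background on 12 arrays, read 0.70 and 1.46. CLEC12B, an inhibitory receptor, differed by -0.13 and 0.07. Among the lymphocyte genes outside the lectin cluster, LAG3, an inhibitory co-receptor of T cells, differed by 0.66 and 0.46, and PTPN6, which encodes the phosphatase SHP-1, by 0.34 and 0.35. The probe for CD4, the T helper co-receptor, was above background on all 16 arrays, with group means of 4.14 to 4.28, and differed by 0.06 and 0.14, while a second probe, above background on 11 arrays, read -0.49 and -0.11. Of 9 leukocyte markers on the array 6 were above background on all 16 arrays, with MS4A1 on none, and their summed signal was 1.37 to 2.15 in 16HBE-WT and 1.16 to 1.96 in 16HBE-ex14, in units of the 75th percentile. Their part in the lectin and lymphocyte results was not tested.

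**Figure D4:**
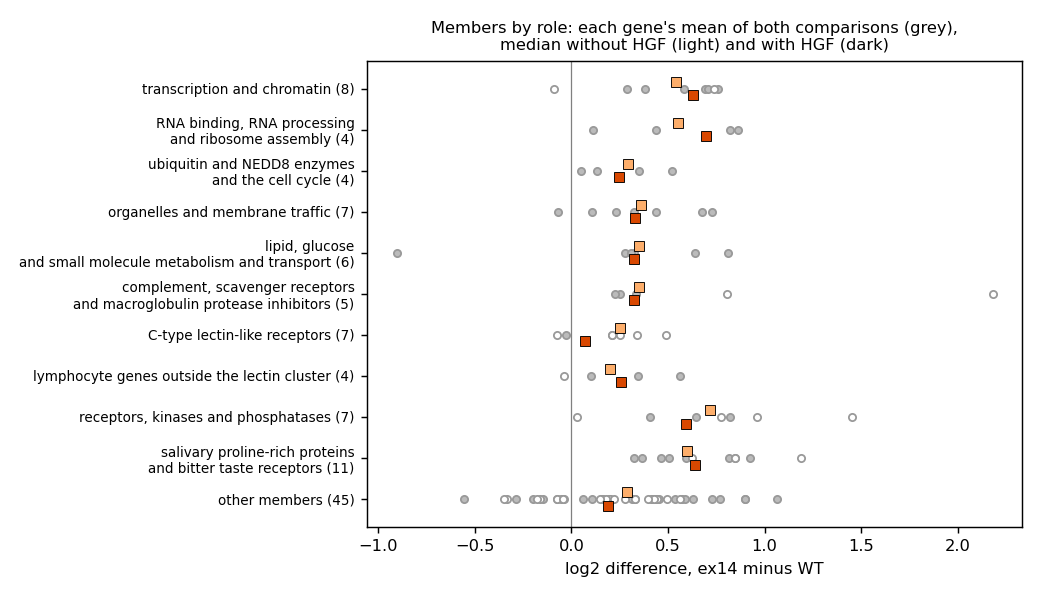
Log2 difference between the genotypes for the members of each role list (number of members in brackets): grey points are single genes as the mean of the comparisons without and with HGF, filled where above background on all 16 arrays and open on 4 to 15, light squares are medians without HGF and dark squares medians with HGF. Every list has both medians above 0, and the lectin-like receptors have the lowest median with HGF, 0.07. OLR1, also a lectin-like receptor, is shown with the metabolic genes.

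The 45 other members fell in none of these lists. MIR200CHG, the host of the microRNAs shown above, read -0.20, -0.22, -0.84 and -0.53 in 16HBE-WT and 0.93, -0.01, 0.13 and -0.09 in 16HBE-ex14. The lowest array of the clone was above the highest WT array without HGF, while with HGF the ranges (-0.87 to 0.14 and 0.03 to 0.79) overlapped, and the differences were 0.69 and 0.57. PTMS, which encodes parathymosin, differed by 0.32 and 0.34, and MLF2 by 0.30 and 0.32. Among the non-coding transcripts, LOC374443 differed by 0.86 and 0.94, lnc-KLRF1-1:1 by 0.99 and 1.13 and XLOC_l2_003293 by 1.04 and 0.76. The lowest differences without HGF among measured members on all arrays were those of OLR1 (-0.47), lnc-EIF2S3L.1-3 (-0.46) and the pseudogene DSTNP2 (-0.30). Of the 22 members with more than 1 tested probe, 6 had probes that differed in sign between the genotypes in a comparison (CD4, CLEC2D, ETV6, GABARAPL1, PRB3 and RBP5). The 72 protein-coding members had medians of 0.37 and 0.38, and the other 36 had 0.37 and 0.21.

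HGF itself was not used to choose the members, and its effect was tested. It left the window as a whole near 0: the median log2 change over members was 0.03 in 16HBE-ex14 and 0.03 in 16HBE-WT, beside 0.06 and 0.04 over all tested genes. Its sign depended on the scaling, since with arrays scaled to their median the members read -0.13 and -0.08 and all tested probes -0.11 and -0.08. Of the 108 members, 3 fell with HGF in 16HBE-ex14 cells and none was called higher, although RBP5 was under some alternatives given below, where 2% of all tested probes were called, 1.05% higher and 0.957% lower. In 16HBE-WT cells 0 members were called, as were 0 of all tested probes. There 8 of the 108 members had an unadjusted p below 0.05, beside 1694 of the 34600 tested probes (limma, smallest adjusted p of a member 0.871). For the difference between the HGF responses of the genotypes 0 members were called as well. Here 5 members had an unadjusted p below 0.05, beside 1600 of the tested probes (limma, smallest adjusted p of a member 0.757).

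The 3 members lowered by HGF lie close together, at 10.31 to 10.38 Mb (hg19), with 1 member that was not called, lnc-OLR1-2:1 (change -0.18 ± 0.27, SE, limma, adjusted p = 0.852), between TMEM52B and GABARAPL1. OLR1 (chromosome 12, 10311598 to 10311657) encodes LOX-1, a lectin-like receptor for oxidised LDL. It read 0.41, 0.35, -0.07 and 0.75 in 16HBE-ex14 and -1.15, -1.15, -0.96 and -0.66 in 16HBE-ex14+HGF. All arrays with HGF were below all arrays without it, and the change was -1.34 ± 0.19 (SE), a fall of 60.4% (limma, adjusted p = 0.0018). In WT cells OLR1 read 1.06, 0.46, 0.90 and 0.88 without HGF and 0.13, 0.68, 0.17 and 0.46 with HGF, ranges that overlap, with a change of -0.47 ± 0.19 (SE, limma, adjusted p = 0.962). The difference between the changes was -0.87 ± 0.27 (SE) and did not pass (limma, adjusted p = 0.757). With HGF, OLR1 was also the member called lower in the clone than in WT (-1.34), against the direction of most of the window.

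GABARAPL1 (10375579 to 10375637) encodes an ATG8-family protein of the autophagosome membrane, and its upstream sequence is shown above. It read 5.02, 5.23, 4.74 and 5.27 in 16HBE-ex14 and 4.41, 4.24, 4.19 and 4.45 in 16HBE-ex14+HGF. These ranges did not overlap, and the change was -0.74 ± 0.11 (SE, limma, adjusted p = 0.0032). A second probe of the gene, at 10374676 to 10374735, changed by the same amount, -0.74 ± 0.14 (SE, limma, adjusted p = 0.0096). In 16HBE-WT the 4 arrays read 4.77 to 4.97 and with HGF 4.52 to 4.72, also without overlap, with a change of -0.26 ± 0.11 (SE) that did not pass (limma, adjusted p = 1.00). The difference between the changes, -0.48 ± 0.16 (SE), did not pass either (limma, adjusted p = 0.864).

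TMEM52B (10343383 to 10343442), a gene for a transmembrane protein, was above background on 13 arrays, 2 of them in 16HBE-ex14+HGF. It read -3.53, -3.27, -3.15 and -2.80 in 16HBE-ex14 and -4.04, -3.82, -4.83 and -4.70 with HGF, without overlap. The change was -1.16 ± 0.29 (SE, limma, adjusted p = 0.0433), and in WT cells it was -0.48 ± 0.29 (SE, limma, adjusted p = 1.00). This call rests on little: the change was -0.53 on slide 1 and -1.79 on slide 2, and the adjusted p rose above the limit in 10 of 16 fits that left out 1 array.

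YBX3, a cold-shock domain protein that binds RNA, lies farther along the window (10852231 to 10853889) and fell by a smaller amount. It read 4.02, 4.15, 4.12 and 4.17 in 16HBE-ex14 and 3.78, 3.79, 3.58 and 3.73 in 16HBE-ex14+HGF, with no overlap. The change was -0.40 ± 0.09 (SE, limma, adjusted p = 0.0253), under the fold limit, and -0.42 ± 0.08 (SE, limma, adjusted p = 0.0113) on its second probe. In WT cells the change was -0.10 ± 0.09 (SE, limma, adjusted p = 1.00). In the opposite direction, RBP5, a retinol-binding protein, read -1.61, -2.16, -1.51 and -1.90 in 16HBE-ex14 and -1.30, -0.98, -1.31 and -1.18 with HGF, and its change of 0.60 ± 0.16 (SE) did not pass (limma, adjusted p = 0.0584). It passed with slide as a block (limma, adjusted p = 0.0478), with the trended and robust prior (0.0425) and when only probes above background on all 16 arrays were tested (0.0317), and its second probe changed by 0.54 ± 0.33 (SE, limma, adjusted p = 0.511). CLEC7A, the beta-glucan receptor dectin-1, was above background on 3 arrays of 16HBE-ex14 and on none with HGF. It passed the filter of 4 arrays mainly through the untreated clone, where it was highest, so no fold is given. Its change was not called (limma, adjusted p = 0.285).

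**Figure D5:**
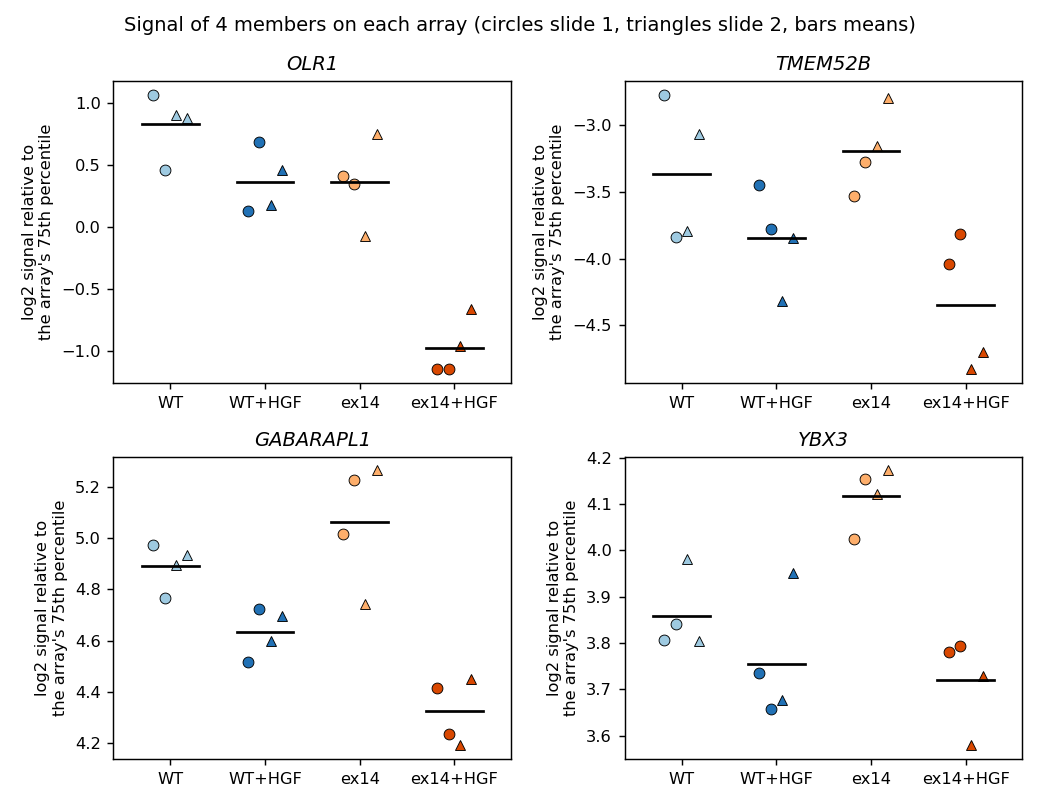
Log2 signal relative to the 75th percentile of the array for OLR1, TMEM52B, GABARAPL1 and YBX3 on each of the 16 arrays; circles are slide 1, triangles slide 2 and bars the mean of 4 arrays. In 16HBE-ex14 every array with HGF lies below every array without HGF for all 4 genes.

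The genotype differences of these genes did not all move alike. GABARAPL1 read 0.17 without HGF and -0.31 with HGF (-0.05 and -0.52 on its second probe), YBX3 0.26 and -0.03, and TMEM52B 0.18 and -0.50. OLR1 was lower in the clone already without HGF, at -0.47, and lay at -1.34 with HGF, while RBP5 read 0.39 and 0.90 (-0.63 and -0.01 on its second probe). For some members with a clear genotype difference, HGF changed little in the clone. The change was 0.12 for PHB2, -0.09 for LRP6, -0.07 for RIMKLB, 0.03 for PRH2 and 0.28 for MAGOHB, none of them called. ING4 moved more, by -0.44 ± 0.15 (SE, limma, adjusted p = 0.157), and was not called either.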

How the data were processed

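RNA of 16 samples of 16HBE cells was hybridised to Agilent arrays (one colour, 60-base probes). The authors deposited the output of Feature Extraction 10.7.3.1, in which the intensity of a spot is, per the file headers, a background-subtracted and detrended linear signal, not yet scaled between arrays. The series-wide value table that was deposited matched it at all 62976 spots of every array, and no spot was saturated.

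Spots with an outlier mark were left out, log2 was taken, the 75th percentile of all non-control spots of the array was subtracted, and spots of a probe were averaged (R 4.3.3, limma 3.58.1, data.table version 1.17.8). Probes well above background on at least 4 arrays were tested (34600 of 58201). limma was fitted over all 16 arrays with 1 mean per group for 5 contrasts, with Benjamini-Hochberg adjustment over all tested probes. Calls needed an adjusted p below 0.05 together with a fold change above 1.5. On simulated data for HGF in 16HBE-ex14 over 34564 probes, 46%, 72%, 84% and 98% of changes of 1, 1.5, 2 and 3 log2 units were recovered. The simulation had few changed probes, independent normal noise and no genotype differences, so these rates hold for that setting only. Where a group was below background on every array, a fold, if given, is a bound against the dimmest signal well above background. That signal is no ceiling for spots not marked as above background, so the bound is approximate.

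The members, lists of roles and markers were chosen with earlier results of these data known. Named genes were the 12 members with the largest and the 6 with the lowest mean genotype difference, members called for HGF, the 3 brightest of each role list, the 10 brightest members, members whose probes differ in sign and the genes at the ends of the window; YBX3, RBP5, CLEC7A, MIR200CHG, M6PR, PEX5, BORCS5, PHC1 and SLC2A3 were added after their values were seen. Of the members, 87 were found in the gene table. Alternatives were normexp (offset 50), other scalings, other filters, outlier spots kept, slide and slide with row as blocks, each slide alone, another prior, only the compared groups, and leaving out each array. The number of arrays limits the precision.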

Additional observations from a re-analysis of the deposited data

Results flagged for a closer look

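Of 228 sets of 4 arrays (57 named genes and summaries in 4 groups), 9 had 1 array apart from the other 3 by Dixon's criterion, which chance alone meets in about 1 set in 20. Values are log2 signal relative to the 75th percentile. CDCA3, a cell division gene, read 3.46 on 16HBE-ex14+HGF replicate 3 (others 3.32 to 3.34). CLEC4A read -2.96 on 16HBE-ex14+HGF replicate 1 (others -2.67 to -2.64). EMG1 read 3.81 on 16HBE-ex14 replicate 2 (others 4.22 to 4.28). LOC374443 read -0.22 on 16HBE-WT replicate 3 (others 0.18 to 0.25) and -0.16 on 16HBE-WT+HGF replicate 4 (others 0.21 to 0.28). MIR200CHG read -0.87 on 16HBE-WT+HGF replicate 4 (others 0.00 to 0.14). PIANP read -5.40 on 16HBE-ex14 replicate 3 (others -4.57 to -4.49), and TAS2R10 read -4.55 on that array (others -4.02 to -3.95), both near or below background. XLOC_l2_003293 read -0.022 on 16HBE-ex14+HGF replicate 1 (others -0.47 to -0.43).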

How the results depend on the processing

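Among the members, 3 were called lower for HGF in 16HBE-ex14 and none higher (2 to 4 called without 1 array, 1 with only the arrays of the compared groups). RBP5 was called higher with slide as a block, with the trended and robust prior, with the filter of 16 arrays and without replicate 2 of 16HBE-WT or replicate 3 of 16HBE-ex14. No member was called for HGF in 16HBE-WT or for the difference of the HGF changes under any alternative run. OLR1 and GABARAPL1 were called without each array in turn (changes of -1.48 to -1.21 and -0.85 to -0.67). With only the arrays of the compared groups, the adjusted p was 0.0582 for GABARAPL1 and 0.0887 for TMEM52B, whose adjusted p was also 0.0827 with no filter, 0.12 with normexp and 0.0501 with E1A scaling. Called for the genotype were 24 members without HGF (12 with normexp, 21 to 26 without 1 array) and 26 with HGF (10 with normexp, 22 to 27).

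The members' median between the genotypes was 0.37 without HGF and 0.35 with HGF. It was 0.19 and 0.14 with no filter (183 members), 0.10 and 0.058 with normexp, 0.54 and 0.45 with E1A scaling, 0.50 and 0.45 with median scaling, 0.43 and 0.33 within slide 1 and 0.38 and 0.39 within slide 2. Without 1 array it was 0.35 to 0.43 and 0.34 to 0.38. The members' median for HGF in 16HBE-ex14 was 0.071 with the mean over probes, -0.0044 with no filter, -0.096 with E1A scaling, -0.13 with median scaling and -0.0078 within slide 1. For HGF in 16HBE-WT it was -0.083 with median scaling.

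Among named members called in the comparison, the sign turned with normexp for PIANP without HGF (-0.067) and TAS2R19 (-0.089 without and -0.17 with HGF). It also turned for TAS2R43 with HGF (-0.13) and CLEC4A with HGF (-0.011). All are dim probes, and the cause was not tested. Differences that were not called could turn as well. The lowest values over the alternatives that kept every array were, among others, -0.13 for TAS2R10 without HGF, -0.15 for PIANP with HGF and -0.052 for CLEC4A without HGF.

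Of all tested probes, 3252 and 3749 were called for the genotype without and with HGF (1489 and 1814 with normexp, 6348 and 7125 with no fold limit, 2915 to 3364 and 3381 to 3825 without 1 array). For HGF in 16HBE-ex14 693 were called, 411 with normexp, 246 with only the compared groups, and 346 to 977 without 1 array. Leaving out replicate 2 or 4 of 16HBE-ex14 gave 346 and 374, and leaving out replicate 3 or 4 of the HGF-treated clone 377 and 442. For HGF in 16HBE-WT 0 to 1 were called without 1 array. For the difference of the HGF changes 4 were called with normexp and 4 with another prior, and 0 to 11 without 1 array.

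With slide and row as replicate block, the members called were 25 and 29 for the genotype and 3 for HGF in 16HBE-ex14, and with slide alone 27, 29 and 4; the replicate numbers follow array positions, and whether they also follow the week of culture is not given in the sources used here. Changes of transcripts below background, 75 gene names of the window among them, were not measurable.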
